A study of Mus musculus with 24 samples.

Results

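The nuclear genes for subunits of the mitochondrial respiratory chain were followed in cerebella of 5 mouse genotypes. Genes were chosen by symbol from GENCODE M21 (Ndufa, Ndufb, Ndufc, Ndufs, Ndufv, Sdh, Uqcr, Cyc1, Cox4i, Cox5 to Cox8 and Atp5, without the Ndufaf assembly factors) and had to reach 10 counts in at least 4 libraries. Of 54232 genes in the count files, 87 protein-coding genes matched and 85 were kept, with 36 in complex I, 4 in complex II, 9 in complex III, 19 in complex IV and 17 in complex V. The others were Cox8c, whose highest count was 1, and a second annotated Atp5o locus without counts that overlaps the first, so Atp5o reads may have been left out as ambiguous. Ndufa4 and Ndufa4l2 were placed in complex IV, where the NDUFA4 protein is counted now. All 85 passed the filter on low counts.

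Complexes I and II pass electrons from NADH and succinate to ubiquinone, complex III passes them to cytochrome c, and complex IV passes them to oxygen. Complexes I, III and IV pump protons across the inner mitochondrial membrane, and complex V uses that gradient to make ATP. Most subunits are coded in the nucleus and a smaller set in mitochondrial DNA, and neurons that fire at high rates, such as cerebellar Purkinje cells, depend on this supply of ATP. The transcription factors NRF1, GABP and YY1 are known regulators of many of the nuclear genes.

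Bulk cerebella of mice aged 6 weeks were sequenced. Spinocerebellar ataxia type 1 (SCA1) is a neurodegenerative disease caused by an expanded polyglutamine tract in ATXN1, and the S776A change removes a phosphorylated serine of ATXN1. The 5 genotypes were 8 WT mice (Atxn1 2Q/2Q), 4 SCA1 mice (Atxn1 154Q/2Q), 4 SCA1 S776A mice (154Q[S776A]/2Q), 4 S776A double mice (154Q[S776A]/2Q[S776A]) and 4 WT S776A homozygous mice (2Q[S776A]/2Q[S776A]). All alleles lie at the endogenous Atxn1 locus, the S776A alleles were made by CRISPR/Cas9 editing, and the lines were backcrossed to C57BL/6J. In bulk tissue, fewer cells of a type and less RNA per cell cannot be told apart.

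Libraries held between 62163600 and 88430180 fragments on genes. The members took 1.03% to 1.52% of them. A split of the libraries by their alignment summaries gave batch 1 with 16 mice (WT 1 to 4, SCA1, SCA1 S776A and S776A double) and batch 2 with 8 mice (WT 5 to 8 and WT S776A homozygous), so each genotype was compared with the WT mice of its own batch. Markers of Purkinje and granule cells were expressed in every group. SCA1 S776A replicate 2 stood apart: it held 2658 counts of Myh4 and 1048 of Ucp1, genes of muscle and of brown fat, where the other 23 libraries held at most 208 and 141. Genes high in that library are given with and without it. WT S776A homozygous replicate 4 had the largest share of counts from mitochondrial DNA (6.73%, against 3.01% to 4.82% in the other libraries). High Xist was found in 5 mice (WT 6 and 7, S776A double 1, WT S776A homozygous 3 and 4).

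Promoters of 5 members are shown, since NRF1, GABP and YY1 are known to act at promoters of such genes and these members carry results given further on or stand for an isoform pair. RefSeq promoters (GRCm38.p6, 250 bases before to 50 after the start) were found for 67 of the 85 members, in 72 windows. Both strands were searched for NRF1 (GCGCANGC), GABP (CCGGAAG) and YY1 (AANATGGCG), counting overlapping matches. At least 1 of the 3 was held by 58.2% of these members and by 20.5% of all genes with a promoter. All 3 motifs contain CG, and the windows of the members had a median of 19 CpG against 7 over all genes, with a GC content of 57.3% against 52.7%. NRF1 letters were in the promoters of 34.3% of members and 11.2% of all genes, GABP letters in 23.9% and 9.9%, and YY1 letters in 14.9% and 2.8%. The shares differed among complexes: 11 of 13 genes of complex V held a match, 19 of 32 of complex I, 3 of 5 of complex III, 3 of 3 of complex II and 3 of 14 of complex IV. They are Sdhd, a membrane anchor of complex II (chr9:50603800-50604099, minus strand), Ndufs4, an accessory subunit of complex I (chr13:114388045-114388344, minus strand), Atp5g3, which codes for subunit c of the ATP synthase rotor (chr2:73911277-73911576, minus strand), and the complex IV isoforms Cox8a (chr19:7217567-7217866, minus strand) and Cox8b (chr7:140900397-140900696, minus strand), each 5′ to 3′ with motif matches in capitals.
Sdhd: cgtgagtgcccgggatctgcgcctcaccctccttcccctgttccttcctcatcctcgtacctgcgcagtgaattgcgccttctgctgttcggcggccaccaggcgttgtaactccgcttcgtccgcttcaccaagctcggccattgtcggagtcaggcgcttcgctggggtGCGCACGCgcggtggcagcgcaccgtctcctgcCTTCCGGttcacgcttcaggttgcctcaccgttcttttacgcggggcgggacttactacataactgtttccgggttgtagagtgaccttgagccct
Ndufs4: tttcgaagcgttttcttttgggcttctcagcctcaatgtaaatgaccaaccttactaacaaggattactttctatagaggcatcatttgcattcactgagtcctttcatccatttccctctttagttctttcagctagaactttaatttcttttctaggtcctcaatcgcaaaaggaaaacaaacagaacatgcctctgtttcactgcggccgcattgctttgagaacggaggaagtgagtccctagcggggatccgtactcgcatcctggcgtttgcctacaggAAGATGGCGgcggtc
Atp5g3: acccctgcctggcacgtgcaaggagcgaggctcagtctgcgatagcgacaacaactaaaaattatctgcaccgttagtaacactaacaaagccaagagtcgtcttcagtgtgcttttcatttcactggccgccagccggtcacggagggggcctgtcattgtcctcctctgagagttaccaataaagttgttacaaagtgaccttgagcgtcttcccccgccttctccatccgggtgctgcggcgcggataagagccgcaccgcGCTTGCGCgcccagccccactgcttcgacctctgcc
Cox8a: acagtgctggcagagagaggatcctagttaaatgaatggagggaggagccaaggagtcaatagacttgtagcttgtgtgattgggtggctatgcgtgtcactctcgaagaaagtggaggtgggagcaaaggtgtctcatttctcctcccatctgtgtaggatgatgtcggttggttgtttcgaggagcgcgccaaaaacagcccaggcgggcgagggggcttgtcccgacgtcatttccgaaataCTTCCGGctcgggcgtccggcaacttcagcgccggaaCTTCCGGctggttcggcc
Cox8b: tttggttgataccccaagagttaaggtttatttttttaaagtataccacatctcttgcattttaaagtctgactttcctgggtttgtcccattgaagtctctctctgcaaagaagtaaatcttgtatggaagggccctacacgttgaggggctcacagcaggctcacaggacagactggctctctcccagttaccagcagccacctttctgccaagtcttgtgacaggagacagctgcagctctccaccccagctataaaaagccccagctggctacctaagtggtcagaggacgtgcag
In the order of the windows, Sdhd held 1 NRF1 and 1 GABP match, Ndufs4 held 1 YY1 match, Atp5g3 held 1 NRF1 match and Cox8a held 2 GABP matches. Cox8b held none of these letters in this window. The Cox8a window had 19 CpG dinucleotides and that of Cox8b, the isoform of heart, muscle and brown fat, had 2.

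Levels were compared between genes as CPM (counts relative to TMM-scaled library size) per kb of merged exons, averaged over the 8 WT mice. Subunits of one complex differed widely. In complex I the level per length went from 4.96 CPM per kb for Ndufb2 to 145 for Ndufc2, with a median of 52.4. In complex II it went from 41.4 for Sdhc to 116 for Sdha, the catalytic flavoprotein, with Sdhb, the iron-sulfur subunit, at 55.5 and Sdhd at 76.4. Complex III lay between 44.7 (Uqcrb) and 130.2 (Uqcr11), with cytochrome c1 (Cyc1) at 101.9, the Rieske protein (Uqcrfs1) at 109 and the core proteins Uqcrc1 and Uqcrc2 at 73.2 and 68.8. Complex V had Atp5a1 and Atp5b, the alpha and beta subunits of the catalytic head, at 365 and 363 and Atp5l at 3.40. Long merged exons lower this measure: per kb of the median coding transcript, a length chosen after the data were seen, Atp5l was at 40.2 and the lowest genes were Ndufb2, Sdhd, Uqcrb, Cox7b2 and Atp5o. The highest were then Ndufs1 (242), Sdha (264), Uqcrc1 (568), Ndufa4 (503) and Atp5b (803). That median takes every annotated coding transcript of a gene alike, short ones included. It was 651 bases for Ndufs1 and 533 for Uqcrc1, against 8086 and 4135 bases of merged exons, and 2413 bases for Ndufb2. The ranks of these genes rest on those lengths. Only Sdha was the highest of its complex on both lengths, so the order of genes depends on the length used. Reads of Atp5o may also have been left out as ambiguous, as said above, which would lower its level on either length.

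**Figure D1:**
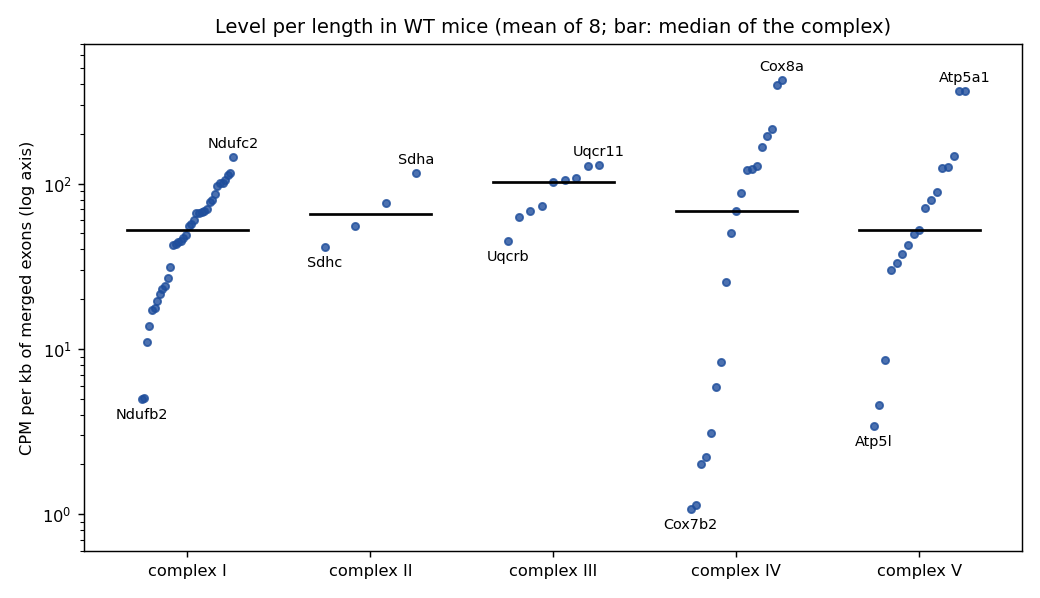
The level of each member in WT mice is plotted by complex, as CPM per kb of merged exons on a log axis (mean of 8 mice, bars for medians of complexes). The highest point is Cox8a at 422 CPM per kb and the lowest is Cox7b2 at 1.07, both in complex IV.

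Complex IV, which holds several tissue isoforms, had the widest range. The common form of each pair took most of the level per length in all 24 libraries: Cox4i1 took at least 98.3% over the lung and hypoxia form Cox4i2, Cox6a1 at least 98.5% over the muscle form Cox6a2, Cox6b1 at least 95.7% over the testis form Cox6b2, Cox7b at least 96.9% over Cox7b2, and Ndufa4 at least 98.3% over Ndufa4l2. Among Cox7a genes, Cox7a2 took 58.4% to 64.7%, Cox7a2l took 30.7% to 37.3%, and the muscle form Cox7a1 took 3.33% to 8.91%. Cox8a took 92.8% to 99.9% over Cox8b, and its lowest share was in SCA1 S776A replicate 2. In complex V, the 3 genes for the identical subunit c kept an order per length, with Atp5g3 at 63.5% to 67.7%, Atp5g2 at 17.2% to 21.7% and Atp5g1 at 14.5% to 17.3%. Before division by length, Atp5g1 lay above Atp5g2 in WT mice, at 148 and 62.5 CPM. Their merged exons hold 4912 and 1675 bases, so their order depends on the division.

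In SCA1 mice, 77 of 85 members had a higher fitted level than in WT mice, by small amounts: the median log2 fold change was 0.10, against 0.00 over all 22502 genes tested, and the median SE of a member was 0.09. No member passed the study's rule (adjusted p under 0.01 and absolute log2 fold change over 0.5), which 0.173% of all genes passed, and none had an adjusted p under 0.05 (lowest 0.43, quasi-likelihood test of edgeR, Benjamini-Hochberg adjusted). At an unadjusted p under 0.05, 6 members were higher and 0 lower, against 3.93% and 4.32% of all genes. Every SCA1 library lay above every batch 1 WT library for 17 members and below for 0, where 3.77% of all genes lay above and 4.99% below. The summed level of the members was 6.27% higher in SCA1 mice (pooled SD 2.65%, n = 4 and 4).

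Of the 6 members with an unadjusted p under 0.05, 4 code for complex V. Atp5g3 had 236, 232, 242 and 246 CPM in the batch 1 WT mice and 259, 269, 266 and 287 in the SCA1 mice. All 4 SCA1 values exceeded the 4 WT values, with a log2 fold change of 0.18 (SE 0.07). Atp5g1, a second gene for subunit c, had 126, 118, 136 and 137 CPM in WT mice and 139, 149, 142 and 157 in SCA1 mice, also without overlap (log2 fold change 0.19, SE 0.07). The third subunit c gene, Atp5g2, gave a log2 fold change of -0.01. Atp5o, the stalk subunit OSCP, had 7.98, 6.69, 7.29 and 7.46 CPM in WT mice and 8.16, 9.07, 8.28 and 9.99 in SCA1 mice, again apart (0.27, SE 0.11). Atp5c1, the gamma subunit of the central stalk, went from 198 to 209 CPM in WT mice and from 212 to 228 in SCA1 mice (0.13, SE 0.06). The other members were Sdhc, a membrane anchor of complex II, at 105 to 109 CPM in WT and 111 to 122 in SCA1 mice (0.12, SE 0.06), and Ndufa11 of complex I, whose groups overlapped, at 48.4 to 54.7 and 54.4 to 64.0 CPM (0.22, SE 0.09).

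By complex, the median log2 fold change in SCA1 mice was 0.09 in complex I (34 of 36 members higher), 0.08 in complex II (3 of 4), 0.12 in complex III (9 of 9), 0.09 in complex IV (15 of 19) and 0.11 in complex V (16 of 17). Among core subunits of complex I, values were small: 0.04 for Ndufs1, 0.03 for Ndufs3, 0.07 for Ndufs7, 0.08 for Ndufs8, 0.06 for Ndufv1 and 0.10 for Ndufv2. In complex III the values were 0.07 for Cyc1, 0.12 for Uqcrfs1, 0.05 for Uqcrc1 and 0.06 for Uqcrc2. Sdha gave -0.01, Sdhb 0.10 and Sdhd 0.07, and the catalytic subunits of complex V gave 0.04 (Atp5a1) and 0.08 (Atp5b). The lowest value was that of Cox6a2 (ENSMUSG00000030785.8), with 0.996, 1.07, 1.69 and 0.687 CPM in WT mice and 0.724, 0.713, 0.670 and 0.668 in SCA1 mice (log2 fold change -0.67, SE 0.33). The groups overlapped in WT replicate 4 only. Without SCA1 S776A replicate 2, which enters the shared estimate of spread, the value was -0.68 (SE 0.21) and its unadjusted p was under 0.05. Ndufa4l2 (-0.12) and Cox6b2 (-0.11) came next in the lower direction.

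Values of other gene lists in SCA1 mice stand beside those of the members, and none of the genes of these lists had an adjusted p under 0.05. Ribosomal protein genes were higher for 81 of 82 with a median of 0.11, while Purkinje markers were higher for 0 of 7 (median -0.28, 6 at an unadjusted p under 0.05). Oligodendrocyte markers were higher for 6 of 6 (median 0.17) and choroid plexus markers for 6 of 6 (median 1.24). The summed choroid plexus level was 34.2 to 1762 CPM in batch 1 WT mice and 914 to 5181 CPM in SCA1 mice, with no marker under 0.1 CPM, and that of Purkinje markers was 6863 to 7901 and 5203 to 5825 CPM. A fit chosen after the data were seen took the mean log2 CPM of the 6 choroid plexus markers as a covariate. In it, the median of the members was 0.04, and 1 member was higher and 2 lower at an unadjusted p under 0.05. The count at that p was 0 without SCA1 replicate 4, 12 without WT S776A homozygous replicate 4, 2 without WT replicate 2, 3 without SCA1 replicate 2 or WT replicate 4, and 18 in a fit of batch 1 alone. The choroid plexus level was tested only as this covariate, and the part of the other lists in the result was not tested.

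**Figure D2:**
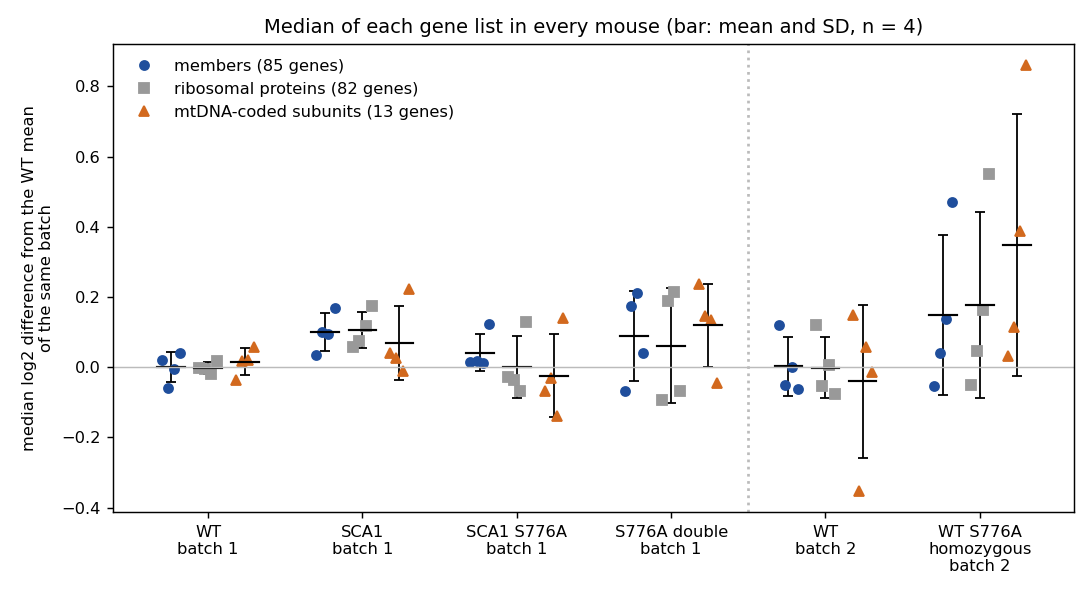
For every mouse, the median log2 difference from the WT mean of its batch is plotted for the members (circles), ribosomal protein genes (squares) and mtDNA-coded subunits (triangles), with bars for the mean and SD of 4 mice. The member medians of SCA1 mice were between 0.04 and 0.17, and WT S776A homozygous replicate 4 stood highest in all 3 lists.

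In SCA1 S776A mice, 72 of 85 members had a higher fitted level than in WT mice, with a median log2 fold change of 0.04. Without WT replicate 2, 60 were higher with a median of 0.03, and without SCA1 S776A replicate 4, 55 with 0.02. Choroid plexus markers were higher for 6 of 6 (median 0.83), and with that covariate 62 members were higher, with a median of 0.02. No member passed the study's rule (0.0133% of all genes did) or an adjusted p under 0.05 (lowest 1.00, edgeR). At an unadjusted p under 0.05, 1 member was higher and 0 lower, against 1.98% and 1.95% of all genes. Only Ndufb5, an accessory subunit of complex I, lay above all batch 1 WT mice in all 4 libraries, as 1.87% of all genes did. The per-mouse medians were 0.02, 0.02, 0.01 and 0.12, and the fourth mouse lay far from the other three. Complex medians were 0.03 in complex I, 0.02 in II, 0.06 in III, 0.05 in IV and 0.05 in V. Ndufa4l2 (-0.20), Ndufb6 (-0.07) and Sdha (-0.03) had the lowest p among members with a lower value.

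The member of lowest p was Cox8b (ENSMUSG00000025488.9), and it rested on 1 library. Its level was 0.189, 11.1, 0.374 and 0.643 CPM in SCA1 S776A mice, and 0.129 to 1.08 CPM in the 20 mice of the other groups. The log2 fold change against WT was 2.98 (SE 1.00), and 0.07 (SE 0.63) without replicate 2. The muscle form Cox7a1 behaved alike, at 9.06 CPM in replicate 2 and 3.77 to 4.47 CPM in the other SCA1 S776A mice, with a log2 fold change of 0.42 that became 0.04 without this library. Cox6a2 was at 3.45 CPM in that library and at 0.728 to 1.19 in the other three, and its log2 fold change went from 0.53 to -0.14. In the same library, per library total without TMM scaling, the summed level of 6 skeletal muscle markers was 142 CPM, against 3.80 to 12.0 CPM in all other libraries, and that of 5 fat genes listed after the data were seen was 81.6 CPM, against 0.297 to 5.83 CPM. The second highest fat sum (5.83 CPM) was in WT S776A homozygous replicate 4, which also had the second highest Cox7a1 (7.70 CPM). Its muscle sum was 4.25 CPM. Cox7a1 lay 0.65 above the batch 2 WT mean in log2 in that mouse, where the median over all members was 0.47. The part of fat in that value was not tested. Blood markers were higher in SCA1 S776A mice for 5 of 5 (median 0.73), and their part in the result was not tested. Without SCA1 S776A replicate 2, 0 members had an unadjusted p under 0.05 and 74 were higher, with a median of 0.05.

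**Figure D3:**
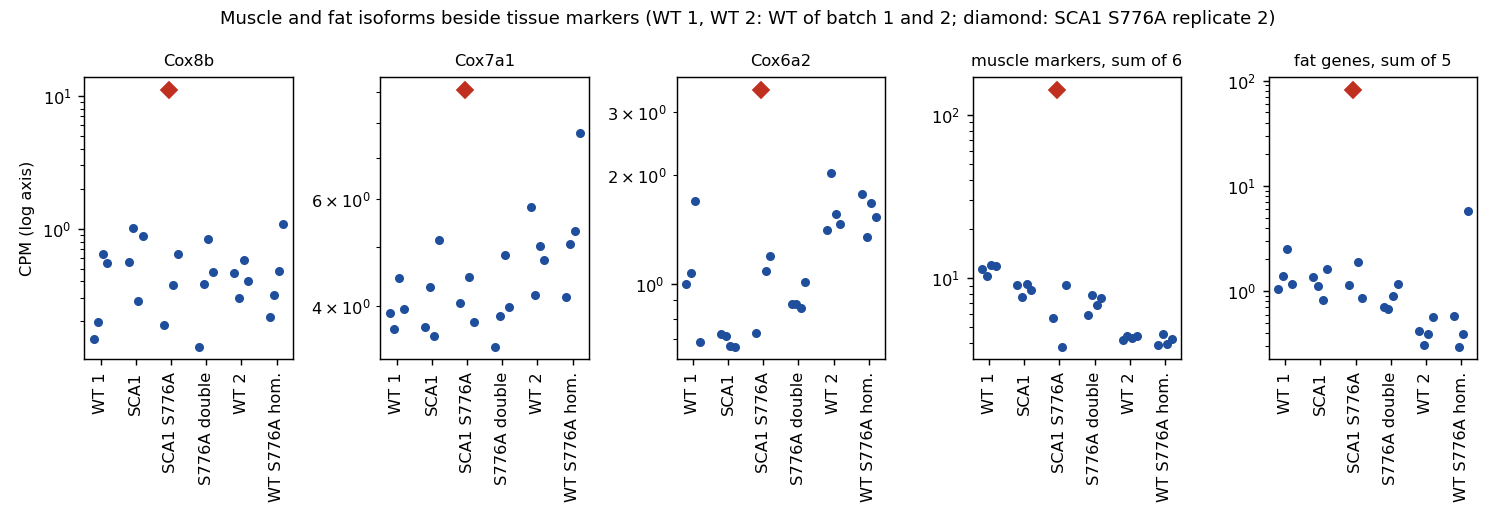
CPM of Cox8b, Cox7a1, Cox6a2 and of the summed muscle and fat genes is plotted for every mouse by group on log axes. The red diamond, SCA1 S776A replicate 2, is highest in all 5 panels, with 11.1 CPM of Cox8b and 142 CPM of muscle markers.

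In S776A double mice, 77 of 85 members had a higher fitted level than in WT mice, with a median log2 fold change of 0.09. No member passed the study's rule (0.0267% of all genes did) or an adjusted p under 0.05 (lowest 0.70, edgeR). At an unadjusted p under 0.05, 2 were higher and 0 lower, against 3.54% and 3.4% of all genes. The 2 members were Atp5c1 (0.15, SE 0.06) and Ndufb5 (0.18, SE 0.08), and Uqcrb, a small subunit of complex III, came next (0.21, SE 0.11). Ndufb5 was at 51.9, 50.2, 48.6 and 51.7 CPM in WT mice and at 53.7, 58.5, 60.3 and 56.0 CPM in S776A double mice, without overlap. Its annotation overlaps that of Mrpl47, so reads in a shared part may have been left out as ambiguous. In all, 7 members lay above every WT mouse (3.56% of all genes did), among them Atp5b, Ndufa4 and Ndufv2. The mice differed more than those of the other batch 1 groups. Their member medians were -0.07, 0.18, 0.21 and 0.04, and replicate 1, the only one with high Xist, had 21 of 85 members above the WT mean while replicate 2 had 81. The median was 0.13 without replicate 1 (78 higher) and 0.05 without replicate 3 (65 higher). Without replicate 1 the count at an unadjusted p under 0.05 was 20, and without replicate 2 or 3 it was 0 in the higher and 1 or 2 in the lower direction. It was 0 without WT replicate 2 or 3, 12 without WT S776A homozygous replicate 4 and 15 in a fit of batch 1 alone. Ndufa4l2, found with low oxygen in other tissues, had the lowest p in the lower direction (-0.30, SE 0.15), followed by Cox6b2 (-0.21) and Atp5g2 (-0.08).

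In WT S776A homozygous mice, 79 of 85 members had a higher fitted level than in the batch 2 WT mice, with a median log2 fold change of 0.15 against 0.01 over all genes. No member passed the study's rule, which no gene passed (0%), or an adjusted p under 0.05 (lowest 0.49, edgeR). At an unadjusted p under 0.05, 17 members were higher and 0 lower, against 6.57% and 3.41% of all genes. They were 8 members of complex I, 4 of IV, 2 each of III and V, and 1 of II, led by Ndufs4 (0.28, SE 0.10), Atp5s, a factor that couples ATP synthase (0.17, SE 0.06), Cox6c (0.32, SE 0.12) and Sdhd (0.16, SE 0.06). All 36 members of complex I were higher, with a median of 0.16, and the medians of complexes II to V were 0.10, 0.11, 0.17 and 0.14. The lowest p in the lower direction belonged to Ndufa4l2 (-0.29), Cox6b2 (-0.14) and Sdha (-0.03).

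These values rested largely on replicate 4. Ndufs4 (ENSMUSG00000021764.8) was at 79.8, 67.0, 70.9 and 69.4 CPM in WT mice and at 70.8, 74.4, 87.3 and 115 CPM in WT S776A homozygous mice. Cox6c was at 219, 169.9, 185 and 185 CPM in WT mice and at 182, 196, 239 and 328 CPM in homozygous mice. Homozygous replicates 3 and 4 lay above the WT range for both genes, replicate 4 by far the most, and replicates 1 and 2 lay within it. Atp5s alone had no overlap (1.32% of all genes lay above every WT mouse), with 17.5 to 18.7 CPM in WT and 18.8 to 23.3 CPM in homozygous mice. The member medians of the homozygous mice were -0.05, 0.04, 0.14 and 0.47. Without replicate 4 the median log2 fold change was 0.03, 74 members were higher and 0 had an unadjusted p under 0.05. The count was 44 without homozygous replicate 1, 33 without homozygous replicate 2 or WT replicate 5, 10 without homozygous replicate 3, and 4, 11 and 6 without WT replicates 6, 7 and 8. It was 0 in a fit of batch 2 alone. The summed choroid plexus level was 552 to 2766 CPM in these WT mice and 41.1 to 942 CPM in homozygous mice. With the mean log2 CPM of these markers as a covariate, 42 members were higher and 1 lower at an unadjusted p under 0.05, with a median of 0.18.

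Within that mouse the medians of members with shorter and longer transcripts differed, while their values overlapped. The 43 members whose median coding transcript was at most 680 bases had a median log2 difference of 0.55 from the WT mean, and the 42 longer ones 0.31. Of the shorter members 40 lay above that mean, and of the longer 37, among them Ndufs4 (0.69), Cox7b (0.69) and Ndufb4 (0.66). Ndufs1 and Uqcrc1, which count as shorter on this length, were at 0.01 and -0.01. The long transcripts Atp5a1 and Atp5b were at 1228 and 1588 CPM, inside the WT ranges of 1209 to 1309 and 1585 to 1770 CPM, and Sdha was at 447 CPM, below the WT range of 473 to 516 CPM. In S776A double replicate 1 the direction was the opposite, with -0.14 for shorter and -0.03 for longer members. The part of transcript length in the result was not tested.

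**Figure D4:**
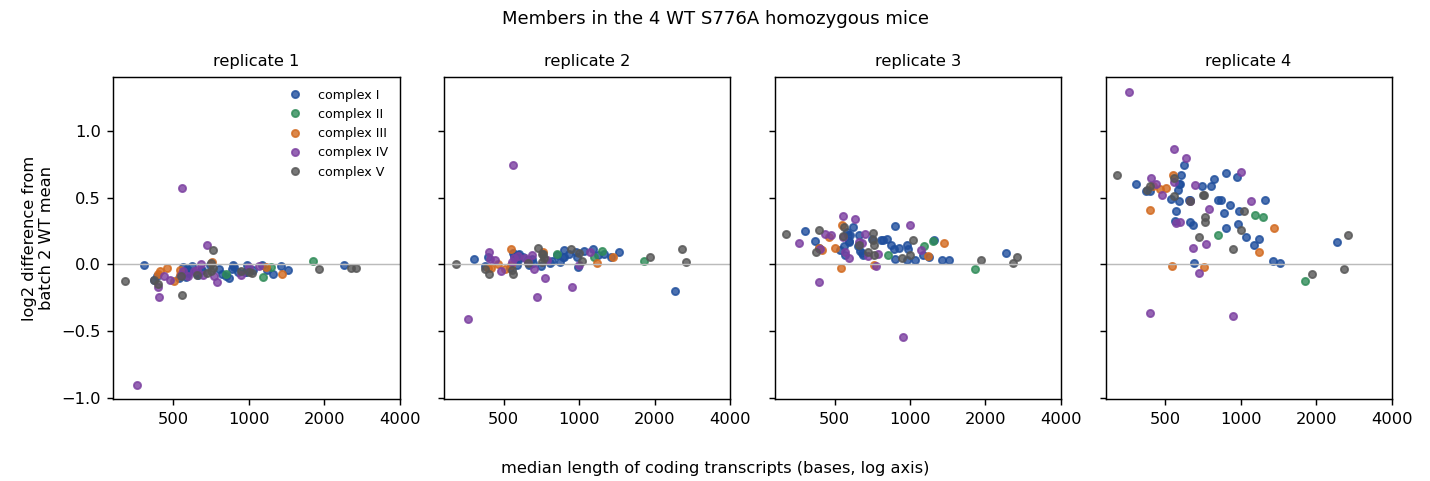
Each panel plots, for 1 WT S776A homozygous mouse, the log2 difference of every member from the batch 2 WT mean against the median length of its coding transcripts (log axis, colours for complexes). The points of replicate 4 lie mostly above 0, with a median of 0.55 for the shorter and 0.31 for the longer members, while the medians of replicate 1 are -0.07 and -0.04.

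**Figure D5:**
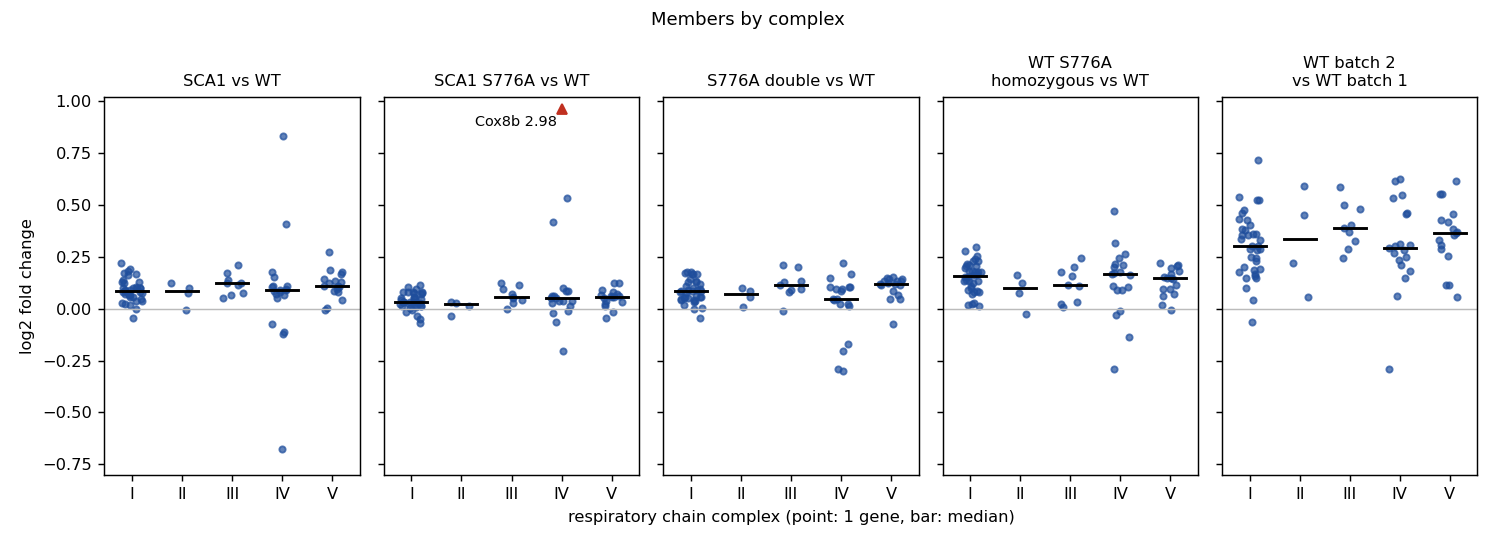
The log2 fold change of each member (points) and the median of each complex (bars) are plotted for 4 genotype comparisons and for the WT mice of the batches. Medians of complexes lie between 0.02 and 0.17 in the genotype comparisons and between 0.29 and 0.39 between batches, and Cox8b at 2.98 is drawn at the top edge.

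Whether S776A shifts the members in SCA1 mice was asked by direct comparison within batch 1. Between SCA1 S776A and SCA1 mice, 77 of 85 members were lower, with a median log2 fold change of -0.05. No member passed the study's rule (0.00444% of all genes) or an adjusted p under 0.05 (lowest 0.82, edgeR). At an unadjusted p under 0.05, 2 were higher and 0 lower, against 2.46% and 1.89% of all genes. The 2 were Cox6a2 (1.21, SE 0.33) and Cox8b (2.14, SE 0.93), and without SCA1 S776A replicate 2 they were at 0.54 (SE 0.22) and -0.76 (SE 0.60). Cox6a2 lay above all SCA1 mice in the 4 SCA1 S776A mice and in the 4 S776A double mice, which had 0.855 to 1.01 CPM (log2 fold change against SCA1 0.38, SE 0.34). Over all genes, 1.73% and 1.57% lay above SCA1 in this way. Between SCA1 S776A and SCA1 mice 4 members lay wholly below (Ndufa10, Sdhd, Ndufv2 and Atp5b), as did 1.68% of all genes. The members of lowest p in the lower direction were Cox5a (-0.11), Atp5g3 (-0.12) and Ndufa10 (-0.09). Without SCA1 replicate 4, 26 members were higher and 59 lower, and the median was -0.02. Ribosomal protein genes had a median of -0.10 in the same comparison, with 80 of 82 lower. Purkinje markers were higher for 7 of 7 (median 0.17, 3 at an unadjusted p under 0.05), choroid plexus markers lower for 6 of 6 (median -0.36) and oligodendrocyte markers lower for 6 of 6 (median -0.08). With the choroid plexus covariate the median of the members was -0.03, with 17 higher.

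Between S776A double and SCA1 mice, 38 members were higher and 47 lower, with a median of 0.00. Choroid plexus markers were lower for 6 of 6 (median -0.82), Purkinje markers higher for 7 of 7 (median 0.18, 4 at an unadjusted p under 0.05) and oligodendrocyte markers lower for 6 of 6 (median -0.13). With the choroid plexus covariate 68 members were higher and 17 lower, with a median of 0.05. None passed the study's rule (0% of all genes) or an unadjusted p under 0.05 in either direction, against 1.68% of all genes higher and 1.96% lower. Ndufa10 had the lowest p (-0.10, SE 0.05), then Atp5s (0.08) and Cox7b2 (-0.58). Leaving out 1 mouse moved the number of higher members from 14 (without S776A double replicate 3) to 70 (without S776A double replicate 1), and it was 22, 24 and 61 without S776A double replicate 2, SCA1 replicate 1 and SCA1 replicate 4. Between S776A double and SCA1 S776A mice, 74 members were higher, with a median of 0.05. Without S776A double replicate 3, 45 were higher and 40 lower with a median of 0.01, without replicate 2, 60 were higher with 0.02, and without replicate 1, 76 with 0.10. None passed the study's rule (0%), and at an unadjusted p under 0.05, 0 were higher and 2 lower, against 1.37% and 1.59% of all genes. Both, Cox8b (-2.76) and Cox6a2 (-0.82), were at 0.15 and -0.15 without SCA1 S776A replicate 2. An interaction contrast asked whether S776A on the unexpanded allele has a different effect beside the expanded allele, by taking the log2 fold change of S776A double over SCA1 S776A and subtracting the one of WT S776A homozygous over WT, where both unexpanded alleles carry the change. In it, 0 members passed the study's rule (0% of all genes), and Cox8b was the 1 member lower (0 higher) at an unadjusted p under 0.05, against 1.63% lower and 1.25% higher. The median of the members was -0.09 with 75 lower, and without WT S776A homozygous replicate 4 it was 0.01 with 33 lower. The interaction of Cox8b was -3.00 (SE 1.41), and -0.085 (SE 0.83) without SCA1 S776A replicate 2.

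The largest contrast of the members was not one of genotype. Between the WT mice of batch 2 and batch 1, 83 of 85 members were higher, with a median log2 fold change of 0.33 against 0.00 over all genes. The rule called 12 members, all higher, where it called 17.6% of all genes. At an adjusted p under 0.05, 64 members were higher and 0 lower, against 20.7% and 24.3% of all genes (quasi-likelihood test of edgeR, Benjamini-Hochberg adjusted). At an unadjusted p under 0.05, 70 were higher and 0 lower, against 24.5% and 27.4%. In 69 members every batch 2 WT mouse lay above every batch 1 WT mouse (22.9% of all genes). The summed level was 24.1% higher (pooled SD 4.63%). Without TMM scaling it was 18.3% higher on library totals and 19.2% on the counts of nuclear genes only.

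Sdhc had the lowest p, with 169, 157, 165 and 156 CPM in batch 2 and 109, 106, 105 and 109 CPM in batch 1 (log2 fold change 0.59, SE 0.06, adjusted p = 2.1e-08, edgeR). The other members called by the rule were Ndufa10, Ndufa11, Ndufa7 and Ndufb9 of complex I, Uqcrq of complex III, Cox4i1, Cox4i2 and Ndufa4l2 of complex IV, and Atp5e, Atp5k and Atp5o of complex V, with Ndufb9 at the largest value (0.72, SE 0.11). Among the 30 members of lowest p, those under the fold threshold were Uqcrc1 (0.50), Uqcrc2, Cyc1 and Uqcrfs1 of complex III, Cox5a and Cox6b1 of complex IV, Sdhb of complex II, Ndufb8, Ndufb10, Ndufs3, Ndufs8, Ndufv2 and Ndufv3 of complex I, and Atp5a1, Atp5b, Atp5c1, Atp5d, Atp5f1, Atp5g1, Atp5g3 and Atp5h of complex V, down to 0.25 for Ndufs3. Ndufs1 (0.04), Sdha (0.05) and Atp5j (0.06) did not pass, and the 2 members with lower values were Cox7b2 (-0.29) and Ndufa5 (-0.06). Complex medians were 0.30, 0.33, 0.39, 0.29 and 0.36 from I to V. Ribosomal protein genes were higher for 79 of 82 (median 0.34) and oligodendrocyte markers for 6 of 6 (median 0.56). What separates the batches besides sequencing is not given in the sources used here, so batch and any other difference between these WT mice cannot be told apart.

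The mtDNA-coded subunits, the partners of the members in complexes I, III, IV and V, had medians of 0.08 in SCA1 (11 of 13 higher), -0.03 in SCA1 S776A (2 of 13), 0.11 in S776A double (12 of 13) and 0.35 in WT S776A homozygous mice (13 of 13). In the last group 9 of 13 were higher at an unadjusted p under 0.05, against 6.57% of all genes. Values were 0.41 for mt-Nd5 and 0.24 for mt-Co1. The mtDNA medians of the homozygous mice were 0.03, 0.11, 0.39 and 0.86, with replicate 4 the highest. Those of the batch 2 WT mice were 0.15, -0.35, 0.06 and -0.01. No fit without replicate 4 is given for these genes. None of the 13 passed an adjusted p under 0.05 in a genotype comparison with WT. Assembly factors (46 of 48 tested) were less shifted, with medians of 0.01, 0.01, 0.02 and 0.10 in the same order of genotypes. In homozygous mice 7 were higher at an unadjusted p under 0.05, against 6.57% of all genes, among them Ndufaf2 (0.28) and Sdhaf1 (0.42). In S776A double mice, Cox20 was the 1 lower at that p (-0.56), and in SCA1 mice Cox11 (-0.17), where 3.4% and 4.32% of all genes were lower. Cytochrome c (Cycs), the carrier between complexes III and IV, gave 0.08, 0.05, 0.20 and 0.20.

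The 13 regulators had medians of -0.06, -0.03, -0.02 and 0.03. In SCA1 mice Ppargc1b, a coactivator of mitochondrial genes, was the 1 at an unadjusted p under 0.05 (-0.35), against 4.32% of all genes lower. In homozygous mice Tfam, which packages mitochondrial DNA, gave 0.21, Gabpa 0.18 and Pprc1 -0.40, all at an unadjusted p under 0.05. Over all genes 6.57% were higher and 3.41% lower at that p. Gabpa overlaps Atp5j in the annotation, so reads in a shared part may have been left out as ambiguous. None of the assembly factors, Cycs or the regulators passed an adjusted p under 0.05 in these 4 comparisons. Ribosomal protein genes, other short and abundant transcripts, had medians of 0.11, 0.00, 0.07 and 0.19, beside 0.10, 0.04, 0.09 and 0.15 for the members. The 3 genotypes of batch 1 were compared with the same 4 WT mice.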

How the data were processed

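RNA of 24 cerebella was sequenced. The authors used Trimmomatic 0.36 for trimming and STAR 2.7.2d for alignment (GRCm38.p6), and deposited raw counts of fragments per gene, taken here without regard to strand. Their ComBat-seq and DESeq2 1.28.1 steps came later and are not in these counts. Identifiers were matched to GENCODE M21 (54165 of 54232), and 1 row that names no GENCODE mouse gene was left out. Batches were inferred by k-means (k of 2, 50 starts, silhouette 0.634) on 4 alignment shares. Counts of 22502 genes were scaled by TMM and tested with edgeR 4.0.16 (quasi-likelihood, R 4.3.3) with terms for genotype and batch. Of all steps, only this kind of edgeR fit was tried on simulated counts, which held no batch difference. Groups hold 4 mice per batch. Over the members, replicate pairs gave chi-square values of 4.54 to 256 for each degree of freedom, beyond counting error. Values per mouse use log2 CPM with a prior count of 2. Named are the core subunits, isoform sets, members called, and in each comparison the 3 members of lowest p in each direction. Other genes given with values were named after their values were seen. The members and lists were chosen with earlier results of these data known. Alternatives were other scaling, filters, DESeq2 1.42.0, ComBat-seq of sva 3.50.0, no batch term, 1 batch alone, covariates and leaving out each mouse. Each library is taken as 1 mouse, and p-values measure the spread between these libraries. Of the members, 38 overlap another gene. The values of 1 core subunit of complex I are not reported here.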

Additional observations from a re-analysis of the deposited data

Results flagged for a closer look

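A gap test (Dixon's, at the 95% level) was applied to 23 measures in 6 groups of 4, 138 groups in all, of which chance alone marks about 6.9. It marked 3. In SCA1 S776A mice the member median of replicate 4 was 0.123 above the WT mean, and the other three mice were between 0.0113 and 0.0174. Without that mouse 55 of 85 members were higher than in WT mice, and the median was 0.02. In SCA1 mice the share of counts from mitochondrial DNA was 3.97% in replicate 4 and 3.32% to 3.40% in the other three, and that mouse also had the highest member median of its group (0.17). In SCA1 S776A mice Ndufa10, an accessory subunit of complex I, was at 115 CPM in replicate 3 and at 120.0 to 121 CPM in the others.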

How the results depend on the processing

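No member was called by the study's rule in a genotype comparison or in the interaction under any alternative. With no batch term, a fit in which WT mice of both batches serve as controls, the median of the members against WT was -0.0738 for SCA1, -0.125 for SCA1 S776A and -0.0747 for S776A double mice, with 9, 9 and 13 members higher, and 53 members had an adjusted p under 0.05 in WT S776A homozygous mice. In that fit the SCA1 values were -0.0179 for Atp5g3, -0.00666 for Atp5g1, -0.0658 for Ndufa11, -0.0337 for Atp5o, -0.203 for Sdhc and -0.0997 for Atp5c1, and Atp5c1 was at -0.0834 in S776A double mice. With the choroid plexus covariate the SCA1 median was 0.0439, and 68 members were higher between S776A double and SCA1 mice. The cause was not tested. Between WT batches, 64 members were called at an adjusted p under 0.05 with any fold, and 6 on library totals without scaling, where the median was 0.259. Leaving out each mouse gave 9 to 16. Leaving out each mouse also gave -0.142 to 0.807 for Cox6a2 in SCA1 S776A against WT and -0.757 to 2.54 for Cox8b in SCA1 S776A against SCA1 mice, the lowest of each without SCA1 S776A replicate 2. ComBat-seq followed by DESeq2 gave Atp5g3 in SCA1 mice an adjusted p of 0.0378, and 16, 18 and 29 members higher at an unadjusted p under 0.05 in SCA1, S776A double and homozygous mice. DESeq2 gave no p for Cox8b. Over the alternatives, 310 counts of called members stayed within 1.5 times the reported count and 2 did not. The reported count was 0 in every genotype comparison and in the interaction. Further, 265 medians moved by less than the SD between mice and 5 by more. That SD was 0.172 for homozygous and 0.0956 for S776A double mice against WT, as large as their medians of 0.15 and 0.0897. Medians from 0.0312 to 0.305 thus counted as unmoved in homozygous mice, and the tally says little on the stability of these medians. Of the values of single genes, 725 kept direction and side of the threshold, 4 passed it only under an alternative and 9 reversed. No paired analysis was possible because the labels give the genotypes no shared replicate numbers. Depth was at least 62163600 fragments on genes, and counting error matters most for Cox8b, Cox7b2 and Cox6a2, at about 1 CPM or less in most libraries.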
